A study of Mus musculus with 20 samples.

Results

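Toll-like receptors and the co-receptors that work with them were examined in liver and white adipose tissue (WAT) of mice fed a high-fat diet (HFD). The group holds 10 genes: the receptors Tlr1, Tlr2, Tlr3, Tlr4, Tlr5, Tlr7, Tlr8 and Tlr9, and the co-receptors Cd14 and Ly96. They were found by gene name, or by the current symbol of the probe's accession, among the 28786 gene and transcript names on the array, and 12 of its 41174 probes other than controls matched. Each gene is described by its brightest probe, and Tlr3 and Tlr4 each had a second probe. Male C57BL/6 mice, wild type or lacking CD44, a cell-surface receptor for hyaluronan and osteopontin, were fed a diet with 35% fat for 21 weeks and were 7 months old when the tissues were taken. The groups were WT(HFD) liver, CD44KO(HFD) liver, WT(HFD) WAT and CD44KO(HFD) WAT, with 5 arrays each, and all 20 arrays came from mice on this diet. Whether the liver and WAT arrays came from the same mice was not stated. The labels name neither the knockout allele nor the fat depot, and the study's methods give C57BL/6J as the strain onto which the knockout was backcrossed. RNA was hybridised with 1 colour to Agilent whole mouse genome arrays.

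Toll-like receptors recognise molecules of microbes and of damaged cells. Tlr1, Tlr2, Tlr4 and Tlr5 sit on the cell surface, where Tlr2 pairs with Tlr1 to bind bacterial lipopeptides, Tlr4 binds lipopolysaccharide and Tlr5 binds flagellin. Tlr3, Tlr7, Tlr8 and Tlr9 sit in endosomes and bind nucleic acids. Cd14 hands lipopolysaccharide and lipopeptides to the receptors, and Ly96, also called MD-2, is the part of the Tlr4 complex that holds the lipid. All of the receptors except Tlr3 signal through the adaptor Myd88 to NF-kappaB, and the endosomal receptors also raise type I interferon through Irf3 or Irf7. In fatty liver and in adipose tissue of obese mice the pathway is best known from macrophages.

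The array does not read a whole receptor but a 60-base stretch of its messenger. The probes of Tlr1, Tlr2 and Tlr8 are shown because they all lie on the same piece of the protein, the end of the cytoplasmic TIR domain that binds the adaptors. The capitals mark TTTTGG, the codons for phenylalanine and tryptophan of a conserved motif of that domain known as box 3, found by script in the only reading frame of each probe that holds no stop codon. The probe of Ly96 is shown because the level it gave was nearly the same in all 4 groups, and the first 30 bases of the Tlr9 probe because that gene gave the brightest signal in liver relative to its own level in WAT.
Tlr1 probe: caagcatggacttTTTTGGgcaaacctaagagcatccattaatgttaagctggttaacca
Tlr2 probe: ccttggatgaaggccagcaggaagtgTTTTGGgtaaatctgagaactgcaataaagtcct
Tlr8 probe: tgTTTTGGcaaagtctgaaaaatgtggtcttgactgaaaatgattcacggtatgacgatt
Ly96 probe: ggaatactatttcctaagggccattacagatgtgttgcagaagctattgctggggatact
Tlr9 probe, first 30 bases: ctggttcccgagttgctctgcctgccttgc
In the mm7 coordinates of the files, the probes of Tlr1 (chr5:64279687-64279746), Tlr2 (chr3:83941473-83941532) and Tlr8 (chrX:162017145-162017204) lie on the minus strand, and that of Tlr9 (chr9:105956096-105956155) on the plus strand. The Ly96 probe, also on the plus strand, has the coordinates chr1:16895437-16898709, a span of 3273 bases for a 60-base probe, so it crosses a splice junction. The other probes lie at chr4:66276388-66276447 for Tlr4, chr1:182962847-182962906 for Tlr5, chr8:44182210-44182269 for Tlr3 and chrX:162079619-162079678 for Tlr7.

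A level is given here as the log2 of the processed signal minus the log2 of the 75th percentile of that array, so 0 is the 75th percentile and 1 unit is a doubling. Levels of different genes come from different probes and are not compared with each other. The 75th percentile was 433 to 575 intensity units in liver and 1541 to 2792 in WAT. In liver, 57.4% to 61.9% of spots were well above background. In WAT the range was 63.2% to 69.5% on 9 arrays and 89.5% on WT(HFD) replicate 1, which correlated with the other WAT arrays at 0.825 to 0.841 over all probes, when those correlated with each other at 0.960 or more. On that array the summed signal of 6 epididymis markers was 2.04 times the 75th percentile, against 0.0201 to 0.204 on the other WAT arrays, so the WAT differences of the 10 genes are also given without it. Adipocyte markers were higher in WAT and hepatocyte markers higher in liver for all of the 6 and 5 genes tested, as the labels say. Cd44 itself lay between 0.11 and 0.83 in WT(HFD) liver and between -4.19 and -3.24 in CD44KO(HFD) liver, a fall of 18.5-fold (adjusted p = 6.65e-06, limma). In WAT it lay between 3.55 and 4.56 in WT(HFD) mice and between -0.67 and -0.35 in CD44KO(HFD) mice, a fall of 23.8-fold (adjusted p = 7.64e-06). These values are of the brightest of 3 Cd44 probes. The next gave log2 differences of -4.57 in liver and -4.28 in WAT. The dimmest was well above background on 3 WT(HFD) and 2 CD44KO(HFD) liver arrays. It did not fall in liver (0.20, -1.54 to 1.94, adjusted p = 0.888, limma) and was not tested in WAT.

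**Figure D1:**
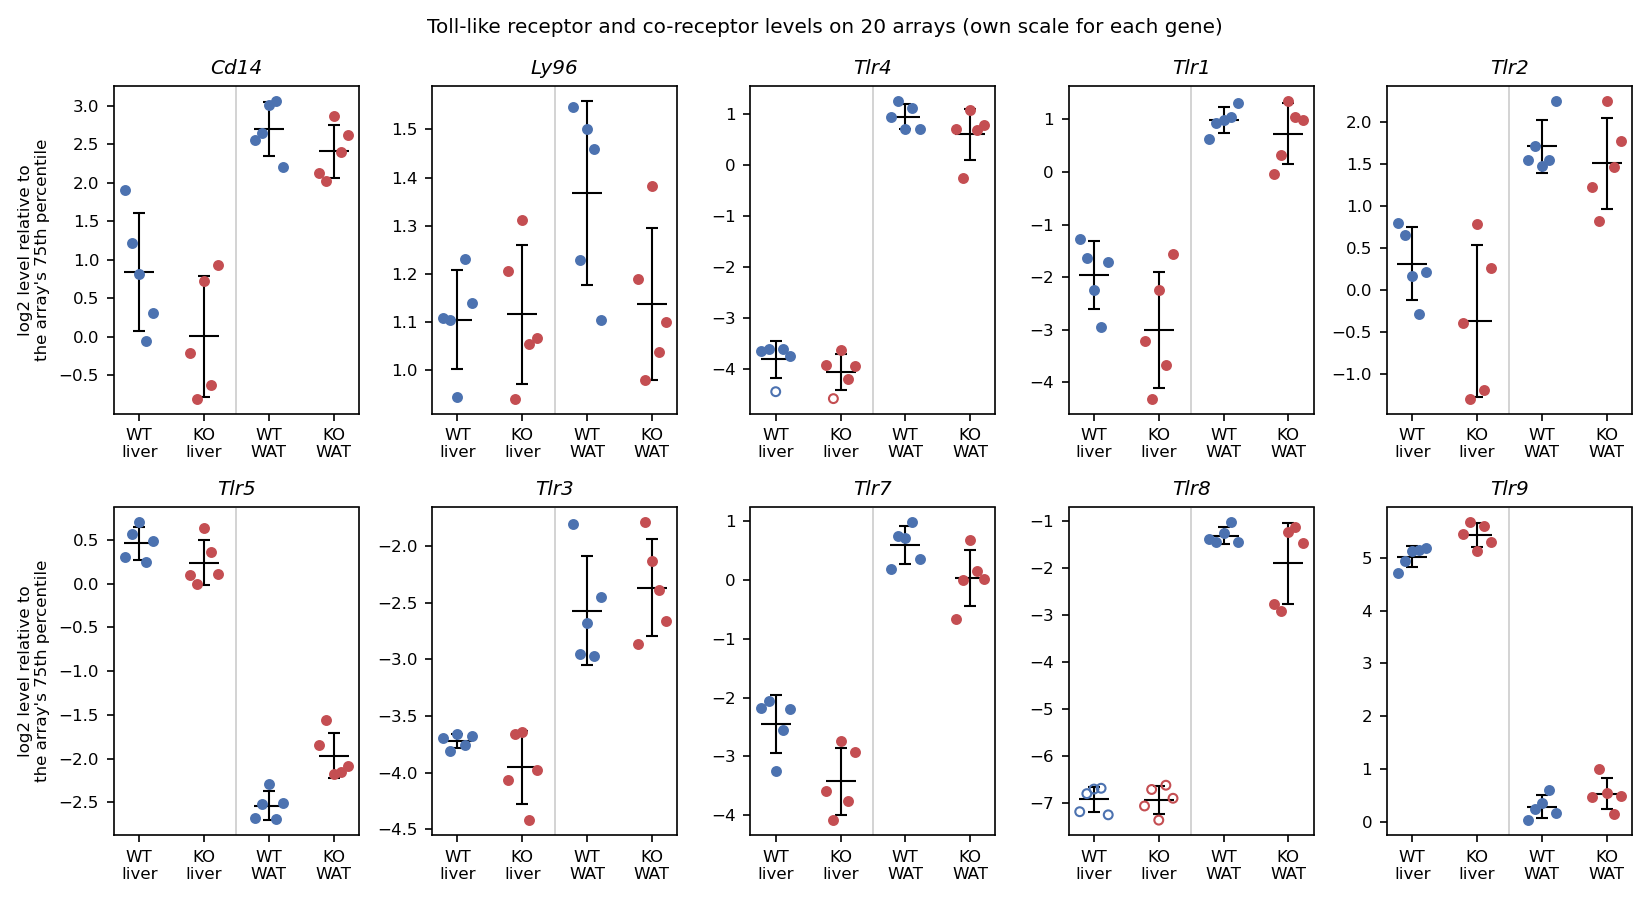
Log2 level relative to the 75th percentile of the array for each of the 10 genes on the 20 arrays, with one panel and its own scale per gene. Points are arrays in order of replicate number, open points were not well above background, and the black bar gives the mean ± SD of 5 arrays. Tlr8 was open on every liver array, and the Tlr9 levels spanned 4.70 to 5.67 in liver against 0.03 to 1.0 in WAT.

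The tissue was the main axis along which these genes varied. In WT(HFD) mice 8 of the 10 genes were higher in WAT than in liver and 2, Tlr5 and Tlr9, were lower, with all 10 past the threshold of an adjusted p of 0.05. Among them Tlr8 entered the test through WAT alone, since it was not well above background in liver, so that its call adds nothing to its levels. Of all 28988 probes tested, 34.3% were higher and 36.2% lower in WAT, so 70.5% were called and a call by itself says little here. In CD44KO(HFD) mice the same 2 genes were lower and 7 of the other 8 were higher, against 73.7% of all probes called, 41.8% lower and 31.9% higher. No slide held both tissues, and the tissues also differed in scanner and scan time, so tissue and slide cannot be told apart.

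Tlr4, the lipopolysaccharide receptor, was among the genes furthest apart between the tissues. In WT(HFD) liver its level was -3.65, -3.62, -4.45, -3.60 and -3.75 in replicates 1 to 5, and in WT(HFD) WAT it was 0.93, 1.25, 0.70, 1.12 and 0.71. Every WAT array lay far above every liver array, and the liver signal was well above background on 4 of 5 arrays of each genotype. The difference was 4.76 on the log2 scale (95% interval 4.26 to 5.25), or 27.0-fold (adjusted p = 2.62e-12). In CD44KO(HFD) mice it was 4.66, or 25.2-fold (adjusted p = 2.70e-12). The second Tlr4 probe, at chr4:66363220-66363279, was well above background on 1 array only, WT(HFD) WAT replicate 1, and was not tested.

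The co-receptors of Tlr4 had smaller tissue differences. Ly96 lay at 1.11 ± 0.10 in WT(HFD) liver (mean ± SD, n = 5), 1.12 ± 0.14 in CD44KO(HFD) liver, 1.37 ± 0.19 in WT(HFD) WAT and 1.14 ± 0.16 in CD44KO(HFD) WAT. The difference between the tissues was 0.26 in WT(HFD) mice (0.03 to 0.50; adjusted p = 0.0450) and 0.02 in CD44KO(HFD) mice (-0.21 to 0.26; adjusted p = 0.868), and the call in WT(HFD) mice was lost with normexp background correction (0.22, adjusted p = 0.103), with arrays centred on their median (0.16, adjusted p = 0.672) and with no filter on dim probes (adjusted p = 0.0792). Without WT(HFD) WAT replicate 1, 9 of the 10 genes were called. The levels of Ly96 overlapped between the tissues in both genotypes. The level of Cd14 was 1.91, 1.21, 0.82, -0.05 and 0.31 in WT(HFD) liver and 2.56, 2.65, 3.01, 3.07 and 2.21 in WT(HFD) WAT, with no overlap between the groups. The difference was 1.86 (1.09 to 2.63), or 3.63-fold (adjusted p = 0.000181).

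Of the lipopeptide receptors, Tlr1 changed more between the tissues than its partner Tlr2, although the difference between the genes was not tested. Tlr1 was at -1.27, -1.63, -2.24, -2.94 and -1.72 in WT(HFD) liver and at 0.64, 0.93, 0.98, 1.05 and 1.32 in WT(HFD) WAT. The difference was 2.95 (2.04 to 3.85), or 7.70-fold (adjusted p = 6.53e-06). Tlr2 was at 0.81, 0.66, 0.17, -0.28 and 0.22 in liver and at 1.55, 1.72, 1.49, 1.56 and 2.26 in WAT of the same genotype, a difference of 1.40 (0.64 to 2.15), or 2.63-fold (adjusted p = 0.00196). For neither gene did the tissues overlap. Tlr5, the flagellin receptor, ran the other way, at 0.30, 0.57, 0.70, 0.25 and 0.48 in WT(HFD) liver and -2.69, -2.52, -2.29, -2.70 and -2.51 in WT(HFD) WAT. In WT(HFD) mice it was 8.0-fold lower in WAT than in liver (log2 difference -3.0, -3.31 to -2.69; adjusted p = 2.81e-12). Within CD44KO(HFD) mice it was 4.61-fold lower in WAT than in liver (adjusted p = 1.65e-10).

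The endosomal receptors were split in the same manner. Tlr8, a receptor for single-stranded RNA, was not well above background on any of the 10 liver arrays. In WT(HFD) WAT it was at -1.39, -1.45, -1.25, -1.02 and -1.44, well above background on all arrays. Since the liver gives only a bound, Tlr8 was at least 12.1-fold higher in WT(HFD) WAT and at least 7.80-fold higher in CD44KO(HFD) WAT than in liver, taking for each liver array the lowest signal of any probe well above background. Tlr7, which binds similar ligands, was at -2.18, -2.05, -3.25, -2.56 and -2.20 in WT(HFD) liver and between 0.18 and 0.98 in WT(HFD) WAT. It was well above background on every array, and the difference was 3.04 (2.43 to 3.65), or 8.25-fold (adjusted p = 2.42e-08). Tlr3, the receptor for double-stranded RNA, was dim in liver, between -3.81 and -3.66 in WT(HFD) mice, and lay between -2.97 and -1.80 in WAT. The difference was 1.15 (0.68 to 1.62; adjusted p = 0.000169). The second Tlr3 probe, at chr8:44181930-44181989, gave 1.25. With normexp background correction the difference of the brighter probe was 0.28 and did not pass (adjusted p = 0.325).

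Tlr9, the receptor for unmethylated CpG DNA, was far higher in liver. Its level was 4.70, 4.94, 5.13, 5.14 and 5.18 in WT(HFD) liver and 0.03, 0.25, 0.35, 0.61 and 0.17 in WT(HFD) WAT. In WT(HFD) mice it was 26.7-fold lower in WAT than in liver (log2 difference -4.74, -5.07 to -4.41; adjusted p = 1.47e-14). Within CD44KO(HFD) mice it was 29.8-fold lower in WAT than in liver (adjusted p = 7.56e-15). Tlr9 lies between Twf2 and Alas1 in the RefSeq gene order of chromosome 9. The nearest Alas1 probe was 7429 bases from the Tlr9 probe and on the other strand, and the nearest Twf2 probe was 11354 bases away. These neighbours were looked up after the Tlr9 values were seen. Alas1, the first enzyme of heme synthesis, was at 6.52 ± 0.32 in WT(HFD) liver and 4.69 ± 0.16 in WT(HFD) WAT on that probe, so it was also higher in liver, with a log2 difference of -1.84. Twf2, an actin-binding protein, ran the other way, at 2.29 ± 0.14 and 3.73 ± 0.22. Whether transcripts of a neighbour reach the Tlr9 probe was not tested.

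**Figure D2:**
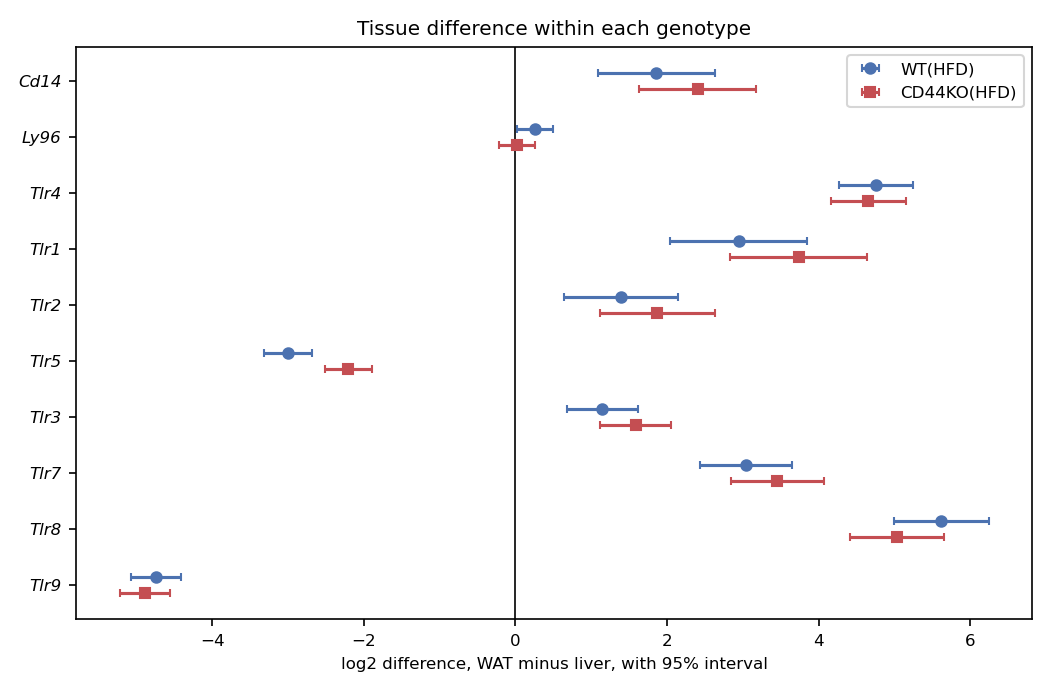
Log2 difference in level between WAT and liver for each of the 10 genes, with 95% intervals, in WT(HFD) mice (circles) and CD44KO(HFD) mice (squares), 5 arrays per group. Tlr5 and Tlr9 lie left of 0 and Tlr1, Tlr2, Tlr3, Tlr4, Tlr7, Tlr8 and Cd14 right of it in both genotypes, while the interval of Ly96 in CD44KO(HFD) mice covers 0; the Tlr8 points use liver signals that were not well above background.

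The size of each tissue difference depends on how arrays are put on 1 scale. With the processed signals compared directly, with no scaling between arrays, each WAT minus liver difference was larger by the gap in the 75th percentile, and Tlr5 and Tlr9 were still lower in WAT, at -0.89 and -2.63, while Ly96 was higher by 2.37. The background correction mattered as well. With normexp in place of the scanner's own correction, the log2 difference in WT(HFD) mice was 3.35 for Tlr4, 2.46 for Tlr7 and 1.93 for Tlr8, against 4.76, 3.04 and a lower bound of 3.60, so the bound of Tlr8 holds for the processed signal only. Macrophage markers moved in the same direction as most of these receptors. All 10 macrophage markers tested were higher in WT(HFD) WAT, with a median log2 difference of 2.72, and their summed signal was 313 to 450 times the 75th percentile in WT(HFD) WAT against 64.9 to 128 in WT(HFD) liver. Of the 6 Kupffer cell markers, 3 were lower and 1 was higher in WAT. In whole tissue, fewer cells of a type and less RNA per cell cannot be told apart. The part of cell composition in the tissue differences was not tested.

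Loss of CD44 was then examined within each tissue. In liver, none of the 9 genes tested passed the threshold (limma), when 13.6% of the 24689 probes tested did, 5.75% lower and 7.85% higher in CD44KO(HFD) mice. At an unadjusted p under 0.05 there were 2 genes, Tlr7 and Tlr9, against 32.2% of all probes. Tlr8 was not tested in liver, since it was not well above background there. Of the 9 genes, 7 had a lower mean in CD44KO(HFD) liver and 2 a higher one, with a median log2 difference of -0.25 against 0.08 over all probes. No gene had groups that did not overlap, against 4.22% of probes lower and 7.5% higher without overlap.

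Tlr7 was the member with the lowest adjusted p in liver. It was at -2.18, -2.05, -3.25, -2.56 and -2.20 in WT(HFD) liver and at -3.60, -4.09, -2.74, -3.76 and -2.93 in CD44KO(HFD) liver. Each CD44KO(HFD) value fell under the average of the WT(HFD) livers, while WT(HFD) replicate 3 lay within the CD44KO(HFD) range. The log2 difference was -0.97 (-1.64 to -0.31), 1.96-fold lower, at an adjusted p of 0.0568. It passed without WT(HFD) replicate 3 (-1.18, adjusted p = 0.0362), without CD44KO(HFD) replicate 3 (-1.15, adjusted p = 0.0267) and with the slide as a block (adjusted p = 0.0228), and the adjusted p ranged from 0.0203 to 0.462 over the alternatives.

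Tlr9 moved the opposite way. Against 4.70 to 5.18 in WT(HFD) liver, it was at 5.45, 5.67, 5.13, 5.6 and 5.29 in CD44KO(HFD) liver, so that all but replicate 3 lay above every WT(HFD) array. The difference was 0.41 (0.12 to 0.70), or 1.33-fold, at an adjusted p of 0.0601. Without CD44KO(HFD) replicate 3 it was 0.48 (adjusted p = 0.0268), and with the slide as a block the adjusted p was 0.0418. Its neighbour Alas1 differed by 0.35 (adjusted p = 0.258) and Twf2 by -0.61 (adjusted p = 0.0319).

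Tlr1, Tlr2 and Cd14 were more scattered. Tlr1 was at -3.22, -4.31, -2.25, -3.68 and -1.56 in CD44KO(HFD) liver, a difference of -1.04 from the WT(HFD) values given above (-2.18 to 0.09; adjusted p = 0.186). Tlr2 was at -0.38, -1.29, 0.79, -1.19 and 0.26, a difference of -0.68 (-1.56 to 0.21; adjusted p = 0.268). Cd14 was at -0.21, -0.80, 0.73, -0.63 and 0.94, a difference of -0.84 (-1.81 to 0.14; adjusted p = 0.216). In each of the 3 genes, CD44KO(HFD) replicates 3 and 5 lay among the WT(HFD) arrays and the other 3 CD44KO(HFD) arrays lay below every WT(HFD) array.

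These 2 arrays shared a slide. On liver slide B, which held WT(HFD) replicates 1 and 5 and CD44KO(HFD) replicates 3 and 5, the CD44KO(HFD) minus WT(HFD) difference was -0.41 for Tlr1, 0.01 for Tlr2, -0.28 for Cd14, -0.64 for Tlr7 and 0.27 for Tlr9. On liver slide A, with replicates 2 and 4 of each genotype, it was -1.71, -1.43, -1.30, -1.62 and 0.59 for the same genes. On liver slide C, with WT(HFD) replicate 3 and CD44KO(HFD) replicate 1, it was -0.98, -0.56, -1.03, -0.34 and 0.32. The direction was thus shared by the 3 slides for Tlr1, Tlr7, Tlr9 and Cd14, and the size was smaller on slide B than on slide A for all 5 genes. Without the 4 arrays of slide B the difference was -1.47 for Tlr1 (adjusted p = 0.0814), -1.14 for Tlr2 (0.0881), -1.21 for Cd14 (0.0854), -1.19 for Tlr7 (0.0746) and 0.50 for Tlr9 (0.0597), so none of these passed, and 4.34% of all probes did. The summed signal of the 10 macrophage markers was also higher in CD44KO(HFD) replicates 3 and 5, at 96.3 and 137 times the 75th percentile, than in the other 3 CD44KO(HFD) livers, at 52.1 to 72.5. Slide and the mice placed on it cannot be told apart.

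**Figure D3:**
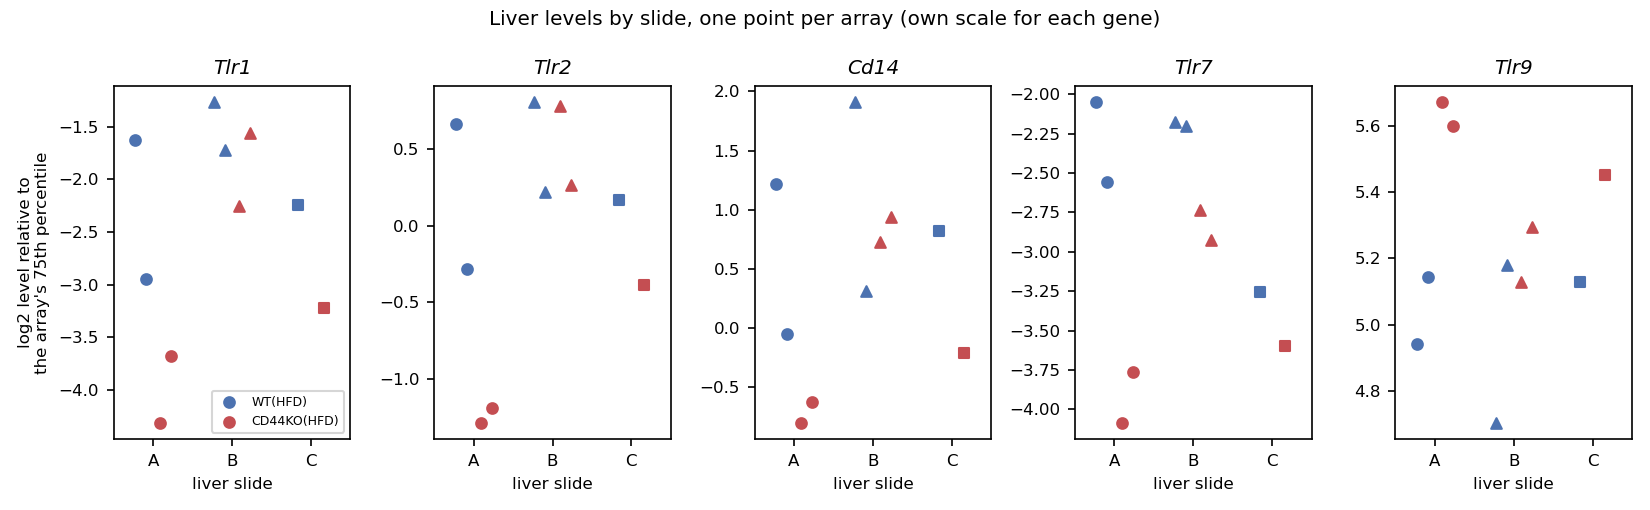
Log2 level relative to the 75th percentile of the array in liver for Tlr1, Tlr2, Cd14, Tlr7 and Tlr9, by slide (A, B and C, with 4, 4 and 2 arrays); each point is 1 array, blue WT(HFD) and red CD44KO(HFD). On slide A the CD44KO(HFD) arrays lie apart from the WT(HFD) arrays in every panel, and on slide B they lie among or near them, with Tlr7 lower in both CD44KO(HFD) arrays.

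The remaining liver genes had small differences. Tlr4 differed by -0.25 (-0.71 to 0.21), Tlr3 by -0.23 (-0.54 to 0.08) and Tlr5 by -0.22 (-0.53 to 0.08), with adjusted p-values of 0.444, 0.278 and 0.293. The second Tlr3 probe gave 0.07 (adjusted p = 0.827), so the 2 probes disagreed in sign. Ly96 differed by 0.01 with a narrow interval, -0.18 to 0.21, which leaves room for a change of no more than about that size in either direction.

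In WAT, none of the 10 genes passed (limma), when 0.0398% of the 27653 probes tested did, 0.0289% lower and 0.0108% higher. At an unadjusted p under 0.05 there was 1 gene, Tlr5, against 14.9% of all probes. The mean was lower in CD44KO(HFD) WAT for 7 genes and higher for 3, with a median of -0.24 against -0.06 over all probes. These directions depended on the scaling, since with each array centred on its median the differences of Tlr1, Tlr2, Tlr4, Cd14 and Ly96 were above 0. That centring moved the median of all WAT probes to 0.42, and these 5 genes, at 0.14 to 0.28, lay below it.

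Tlr5 gave the clearest separation in WAT. It was at -2.69, -2.52, -2.29, -2.70 and -2.51 in WT(HFD) WAT and at -1.84, -1.56, -2.18, -2.15 and -2.09 in CD44KO(HFD) WAT. Each CD44KO(HFD) array lay above each WT(HFD) array, as did 4.1% of all probes tested in WAT, with 2.07% separated the other way. The difference was 0.57 (0.21 to 0.94), or 1.49-fold, at an unadjusted p of 0.00539 and an adjusted p of 0.198. It was 0.47 to 0.64 with any single array left out, 0.54 without WT(HFD) replicate 1, and 0.36 to 1.33 over the other alternatives. Within WAT slide A it was 0.87 and within WAT slide B 0.26. WAT slide C held CD44KO(HFD) arrays only.

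The study reported Tlr8 as decreased in CD44KO(HFD) WAT. It cited its array list from these same samples and a figure of inflammatory marker expression, and it gave QRT-PCR primers for Tlr8. On the arrays Tlr8 was at -2.76, -2.91, -1.24, -1.13 and -1.46 in CD44KO(HFD) WAT, against -1.45 to -1.02 in WT(HFD) WAT. Replicates 1 and 2 lay far below the rest, and the other 3 lay at or near the WT(HFD) range. The difference was -0.59 (-1.40 to 0.23; adjusted p = 0.461), or -0.61 without WT(HFD) replicate 1. Without CD44KO(HFD) replicate 1 or 2 it was -0.37 or -0.34. Tlr7 lay between -0.66 and 0.68 in CD44KO(HFD) WAT against 0.18 to 0.98, a difference of -0.56 (-1.12 to 0.00; adjusted p = 0.337). Its adjusted p was 0.00424 with array weights, a fit that gives less weight to arrays far from the rest and that called 5292 probes in WAT. The other WAT differences were -0.34 for Tlr4, -0.29 for Cd14, -0.25 for Tlr1, -0.23 for Ly96, -0.20 for Tlr2, 0.20 for Tlr3 and 0.25 for Tlr9, with adjusted p-values of 0.466 to 0.715. Without WT(HFD) replicate 1 they were -0.35 for Tlr4, -0.32 for Cd14, -0.34 for Tlr1, -0.19 for Ly96, -0.24 for Tlr2, 0.40 for Tlr3 and 0.19 for Tlr9, that of Tlr7 was -0.66, and no member passed. On WAT slide B, where CD44KO(HFD) replicate 3 stood against 3 WT(HFD) arrays, all 10 genes were higher in the CD44KO(HFD) array. On WAT slide A, with 2 arrays of each genotype, 7 of 10 were lower in CD44KO(HFD) mice, with a median of -0.36.

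**Figure D4:**
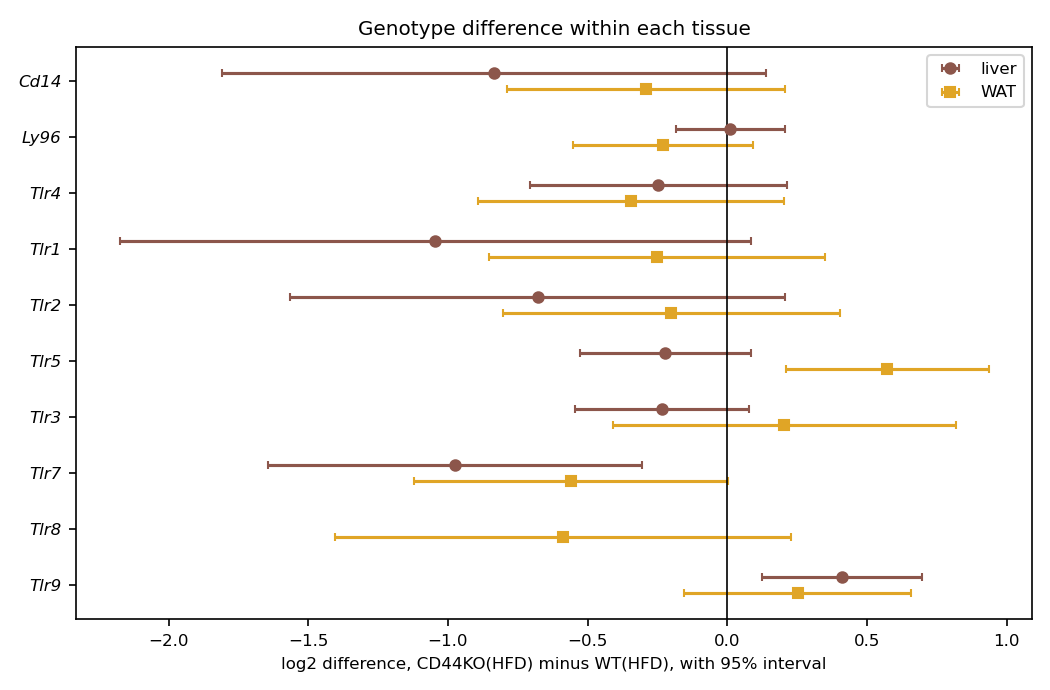
Log2 difference in level between CD44KO(HFD) and WT(HFD) mice for each gene in liver (circles) and WAT (squares), with 95% intervals from 5 arrays per group. Intervals leave out 0 for Tlr7 and Tlr9 in liver and for Tlr5 in WAT, no adjusted p was under 0.05, and Tlr8 has no liver value.

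Whether loss of CD44 acted differently in the tissues was tested as an interaction. None of the 10 genes passed (limma), when 1.15% of the 28988 probes tested did, and 1 gene had an unadjusted p under 0.05, against 15.8% of all probes. This was Tlr5, whose genotype difference was -0.22 in liver and 0.57 in WAT. The gap between them was 0.79 (0.35 to 1.24; unadjusted p = 0.00136, adjusted p = 0.0691). It passed without CD44KO(HFD) liver replicate 3 and with array weights. For the other genes the gap ranged from -0.58 for Tlr8, whose liver signal was not well above background, to 0.79 for Tlr1, with intervals that all included 0.

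The rest of the pathway was described with 6 lists of its other genes, 69 in all, of which 66 had a probe. In liver, 12 of the 57 tested were called, or 21.1%, against 13.6% of all probes, with 10 lower and 2 higher in CD44KO(HFD) mice. The 10 lower include Cd180, which entered the test through WT(HFD) liver alone. The median was -0.11, against 0.08 over all probes. Leaving out slide B, 9 of 54 tested were called, all lower, when 4.34% of all probes were called. In WAT none of 61 was called (limma), against 0.0398% of all probes, and 13 had an unadjusted p under 0.05, against 14.9% of all probes.

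Most of the called liver genes were transcription factors or genes that the signal induces. Of 13 tested genes that Toll-like receptors induce, 4 fell, 0 rose and 9 did not pass, with a median of -0.88. Isg15, an interferon-induced ubiquitin-like protein, was at 1.94 to 2.28 in WT(HFD) liver and 0.68 to 1.14 in CD44KO(HFD) liver, 2.31-fold lower (adjusted p = 0.000548). Ifit1, also induced by interferon, was at -1.15 to -0.82 and -2.17 to -1.47, 1.84-fold lower (adjusted p = 0.0117). In neither gene did the groups overlap. The chemokine Ccl5 was 4.31-fold lower (1.70 to 3.42 against -0.14 to 1.08; adjusted p = 0.0126), and Ccl4 3.35-fold lower (adjusted p = 0.0353). Ccl4 and Ccl5, like Atf3, Nfkb2, Cd36, Marco and Itgax below and Il1rl1 in WAT, were among the genes the study listed from these samples. They are therefore no independent evidence of a direction.

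Of 8 transcription factors tested, 3 fell, 1 rose and 4 did not pass. Irf7, the factor through which Tlr7 and Tlr9 raise interferon, was at 1.27 to 1.66 in WT(HFD) liver and -0.12 to 0.84 in CD44KO(HFD) liver, 2.33-fold lower (adjusted p = 0.00678). Irf8, a factor of myeloid cells, was 1.52-fold lower (adjusted p = 0.0194), and Nfkb2, an NF-kappaB subunit, was 1.56-fold lower (adjusted p = 0.0330). Irf3, the factor downstream of Tlr3 and Tlr4, was 1.24-fold higher (adjusted p = 0.0448). Of 10 inhibitors of the signal, Atf3, a repressor of inflammatory genes, fell by 1.49 on the log2 scale (adjusted p = 0.0188), Dusp1, a phosphatase of MAP kinases, rose by 0.83 (adjusted p = 0.0472) and 8 did not pass.

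Of 17 adaptors and kinases tested, only Traf3, an adaptor of the interferon arm, passed, 1.26-fold lower (0.94 to 1.22 against 0.69 to 0.80; adjusted p = 0.0186), and the list had a median of 0.01. None of the 6 genes of ligand delivery and receptor trafficking passed, and the largest differences were -0.50 for Cd36, a lipid scavenger receptor, and 0.14 for Unc93b1, which carries the endosomal receptors to their compartment. Of 3 other receptors of the family, Cd180, a Toll-like receptor homologue of B cells and macrophages, was well above background on 3 WT(HFD) arrays and on no CD44KO(HFD) array. Its WT(HFD) mean was 1.23-fold above the lowest signal well above background on the CD44KO(HFD) arrays. That mean includes WT(HFD) arrays that were not well above background, so it gives no firm bound. Cd180 entered the test through WT(HFD) liver alone, so its place among the 12 called genes adds nothing to these levels. In WAT the largest differences in the 6 lists, none past the threshold, were -1.67 for Il12b and -1.61 for Cd80 among induced genes, -1.13 for Irf7 and -0.55 for Irf5, -0.92 for Ticam2 and -0.66 for Ticam1, -0.83 for Il1rl1 and -0.66 for Socs1, -0.57 for Ly86 and -0.28 for Tlr6, and 0.47 for Lbp and 0.32 for Cd36.

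**Figure D5:**
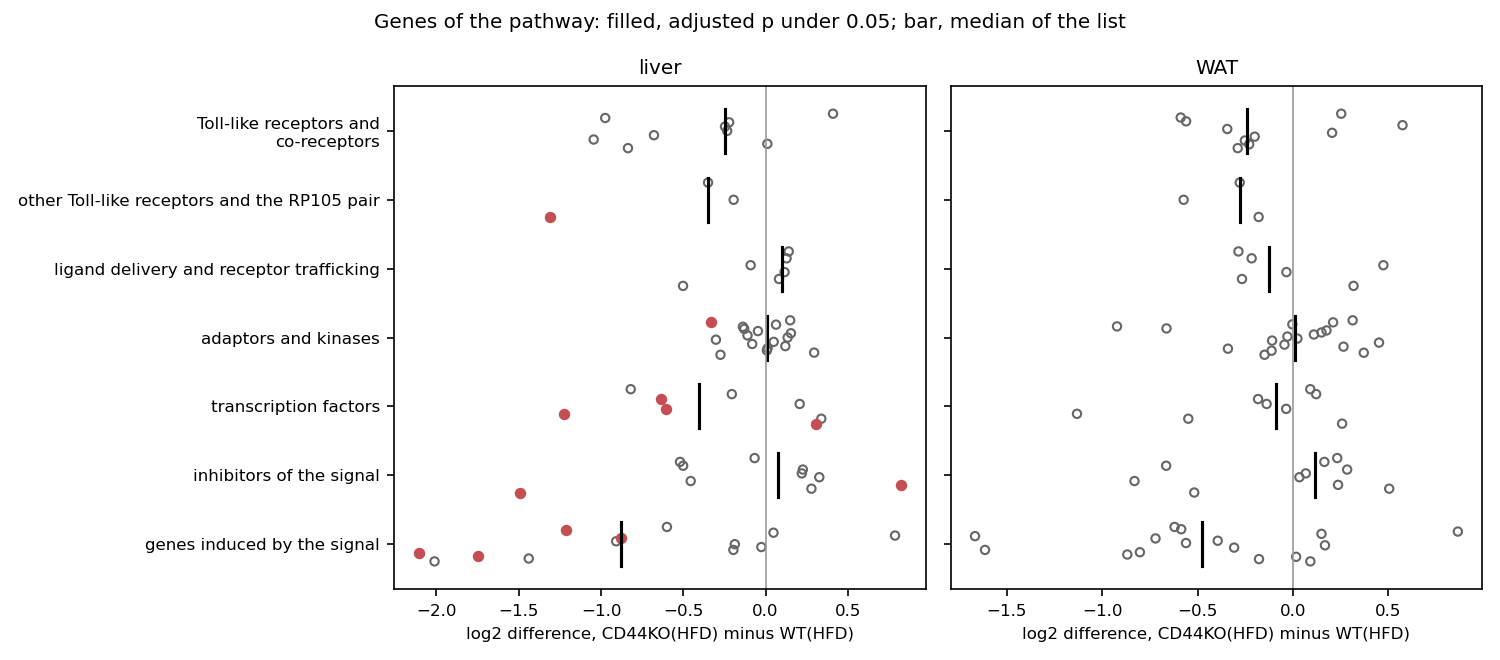
Log2 difference between CD44KO(HFD) and WT(HFD) mice for the tested genes of each list, in liver and in WAT; each point is 1 gene, filled where its adjusted p was under 0.05, and the bar is the median of the list. In liver the 12 filled points are in 5 of the 6 pathway lists, with 4 among induced genes and 4 among transcription factors. They include Cd180, which entered the test through WT(HFD) liver alone. No point is filled in WAT or among the 10 Toll-like receptors and co-receptors.

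Some cell type markers were called between the genotypes in liver, where 13.6% of all probes were called. Of 9 macrophage markers tested, 1, Mpeg1, was lower in CD44KO(HFD) liver, by 0.96 on the log2 scale. That share, 11.1%, was below the share of all probes, and 5 of the 9 had a lower mean. Of 6 Kupffer cell markers, Timd4 and Marco were higher, by 2.99 and 2.95, and none was lower. Of 5 dendritic cell markers 1 was lower, Itgax, the integrin CD11c, by 2.01, and the median of the list was 0.02. Of 4 neutrophil markers 1 was higher, and of 5 hepatocyte markers 1 was higher. Of 6 T cell markers 4 were lower, of 6 stellate cell and fibroblast markers 3 were lower, and none of 4 B cell markers passed. All 6 T cell markers were well above background on every WT(HFD) liver array, but only 5 on every CD44KO(HFD) one. A call that rests on WT(HFD) liver alone adds nothing to the levels. The study listed Cd8a and Col1a1, among others, as reduced in liver from these samples. The T cell and stellate cell calls are therefore no independent evidence of a direction. The summed signal of the macrophage markers was 64.9 to 128 times the 75th percentile in WT(HFD) liver and 52.1 to 137 in CD44KO(HFD) liver, and that of the Kupffer cell markers was 28.6 to 84.4 and 72.9 to 192. Both overlapped between the genotypes. Without overlap in liver were the sums of the adipocyte markers, at 71.5 to 101 and 9.70 to 70.1, and of the stellate cell and fibroblast markers, at 82.0 to 113 and 57.4 to 77.6. Only 3 to 5 of the 6 adipocyte markers were well above background on a WT(HFD) liver array, and 3 to 4 on a CD44KO(HFD) one. Of the 3 tested, 1 was lower, so the adipocyte sum rests on few genes and is no count of adipocytes. In WAT no marker of the 12 lists passed, although the 6 mesothelium markers had a median difference of -2.32, with 5 at an unadjusted p under 0.05. The summed macrophage signal was 313 to 450 and 325 to 422. The summed signals of 2 other lists did not overlap between the genotypes, those of the Kupffer cell markers, at 23.7 to 34.9 in WT(HFD) and 9.08 to 22.5 in CD44KO(HFD) WAT, and of the endothelial cell markers, at 6.96 to 13.9 and 14.8 to 25.4. The part of cell composition in the genotype differences was not tested.

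The probes that ran most alike with a receptor across the 10 liver arrays were found for each member well above background on all of them, and Tlr1 and Tlr9 were picked for description after the values were seen. The comparison ran over 21249 probes that were well above background on all 10 arrays. The probes most like Tlr1 were those of Ms4a7 (Pearson r = 0.987), Fcer1g (0.983) and Ncf4 (0.978), a membrane protein, an Fc receptor chain and an oxidase subunit known from myeloid cells. For Tlr9 the most alike named genes were Sat2 (0.986) and Glo1 (0.983), a polyamine acetyltransferase homologue and the enzyme glyoxalase. With 10 arrays and this many probes, high values are found for any gene, and no test was made.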

How the data were processed

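Total RNA of liver and of WAT, with 5 WT(HFD) and 5 CD44KO(HFD) arrays for each tissue, was labelled with Cy3. It was hybridised to 20 arrays, whose number limits precision. The deposited files hold scanner intensity values from Agilent Feature Extraction 9.5 per the submitters' processing notes (9.5.3.1 per the file headers). The authors' processed signal intensity is the mean signal minus a fitted spatial background, divided by a detrending factor, with surrogate values for the dimmest spots. The series value table holds the same processed intensity as deposited by the authors and was not used separately. Groups follow the labels.

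Spots of the same probe were averaged, and log2 of the processed signal minus the log2 75th percentile of its array was tested with limma 3.58.1 (R 4.3.3, statmod 1.5.0, data.table version 1.17.8). Probes well above background (13 background SDs) on at least 3 of 5 arrays of a group were kept. Liver and WAT were fitted separately, and the interaction and tissue differences in 1 fit of 20 arrays. Whether arrays with the same number come from the same mouse was not stated. P-values were adjusted over all probes tested (Benjamini-Hochberg), with a threshold of 0.05, and intervals are 95% intervals. "At least" folds set the dim group at the lowest signal well above background. Gene names came from the files, or from the current RefSeq symbol of the accession, and Tlr5 was named from the files. All members were named, with list genes past the threshold and, in each list without such genes, the members with the largest differences. Members, lists and tests were chosen with earlier results of these data known. The pipeline was tested on simulated data. Alternatives covered background correction, scaling, filter, fit, replicate and slide blocks, array weights, probe choice and left-out arrays. Runs without scaling and without liver slide B were added after seeing the data.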

Additional observations from a re-analysis of the deposited data

Results flagged for a closer look

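Among 38 groups of 5 arrays, 1 had an array set apart from the rest. In WT(HFD) liver, replicate 3 had a Tlr4 level of -4.45, when the other 4 arrays lay between -3.75 and -3.60. The gap to the nearest array was 0.833 of the range of the group, above Dixon's critical value of 0.71 for 5 samples. Tlr4 was not well above background on that array. Chance alone flags about 1 in 20 groups.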

How the results depend on the processing

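In liver, where no member passed, 1 passed with median centring (Tlr9), with the filter on all arrays of a group (Tlr7) and with array weights (Tlr7), and 2 with the slide as a block (Tlr7 and Tlr9). Leaving out 1 liver array gave 0 to 2 members, with Tlr7 called without WT(HFD) replicate 3 and both genes without CD44KO(HFD) replicate 3. In WAT, 1 member passed with all 20 arrays in 1 fit (Tlr5), 2 passed with array weights (Tlr5 and Tlr7), and 0 passed with any array left out. For the interaction, 1 passed with array weights (Tlr5), and 0 to 1 with an array left out. The tissue difference in WT(HFD) mice was called for 8 to 10 members.

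The 12 pathway genes called in liver became 5 with normexp and 7 with no filter, and 4 to 16 when single arrays were omitted (4 without WT(HFD) replicate 2, 7 without replicate 1 or 5). In WAT, 0 became 3 with all 20 arrays and 15 with array weights, and stayed at 0 with an array left out. Over all liver probes, 3358 became 641 with normexp, 1027 with no filter, 723 with all 20 arrays, 1329 with the replicate block, 996 without slide B and 924 to 4695 with an array left out. The main split was 1420 lower and 1938 higher, against 425 and 216 with normexp and 538 and 185 with all 20 arrays. In WAT, 11 became 35 with normexp, 19 with median centring, 3 with no filter, 1817 with all 20 arrays, 3 with the replicate block, 4 with the slide as a block, 5292 with array weights and 3 to 37 with single arrays omitted (the 37 lacked WT(HFD) replicate 1).

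Signs turned for small differences. With median centring the WAT values were 0.23 for Tlr1, 0.28 for Tlr2, 0.14 for Tlr4, 0.19 for Cd14 and 0.25 for Ly96. With the slide as a block they were 0.0087 for Tlr1 and 0.043 for Tlr2, and with array weights 0.064 for Tlr2. With normexp the liver values were 0.17 for Tlr4, 0.15 for Tlr3 and -0.038 for Ly96. Ly96 in liver was also -0.039 with quantile normalization, -0.025 without slide B, and -0.038 to 0.055 with an array left out. The causes were not tested. The replicate block called 0 members in either tissue. Deviations of same-numbered arrays correlated at -0.038 to 0.417 between the genotypes in liver and at -0.212 to 0.0916 in WAT. Between liver and WAT they correlated at -0.189 to 0.144 in WT(HFD) mice and at -0.0572 to 0.117 in CD44KO(HFD) mice. The genotypes are different mice, and weak correlation between tissues can also come from 1 mouse. Whether the numbers pair liver with WAT therefore cannot be told from these values.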
